A study of Mus musculus with 9 samples.

Results

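Collagens, laminins and integrins were examined in N2A cells, a mouse neuroblastoma line, after siRNA depletion of EXOSC3 or DDX1. Genes were taken by symbol, as those that begin with Col, a number, a and a number, with Lama, Lamb or Lamc and a number, or with Itga or Itgb and further letters or digits. This rule took 87 of the 24318 genes listed, the same ones in both tables, and used no measured value. The families were, however, chosen with earlier results of these data known. Of the 87 genes, 82 belong to the 3 families by name, with 44 collagens, 11 laminins and 27 integrins. The other 5 (Col4a3bp, Itgb1bp1, Itgb1bp2, Itgb3bp and Itgbl1) are caught by their spelling only and are described apart.

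RNA-seq was performed after ribosomal RNA removal on 9 libraries in 3 groups of 3, all from wild-type N2A cells given siRNA with a lipid reagent and no other agent. The groups received scramble siRNA (scramble), EXOSC3 siRNA (siEXOSC3) or DDX1 siRNA (siDDX1). EXOSC3 is a structural subunit of the RNA exosome, the ribonuclease complex that processes and degrades RNA, and DDX1 is a putative RNA helicase. The study asked which transcripts change when either protein is lost. The replicates were separate plates of 1 cell line, so p-values measure the spread between plates, and the time between transfection and harvest is not given in the sources used here.

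Collagens are secreted proteins whose chains wind into a helix. Type IV collagen forms the network of basement membranes, fibrillar collagens form fibrils, and others join fibrils, span the cell membrane or form beaded filaments. Laminins are secreted heterotrimers of an alpha (Lama), a beta (Lamb) and a gamma (Lamc) chain that polymerize on the cell surface as the first layer of a basement membrane. Integrins are surface heterodimers of an alpha (Itga) and a beta (Itgb) chain that bind these matrix proteins outside the cell and talin, kindlin and the actin cytoskeleton inside it. In neuronal cells they take part in adhesion, neurite growth and migration.

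The values are FPKM, fragment counts scaled to transcript length and library size, which allow levels to be compared between genes. The number of reads behind them is not in the tables, so the depth reached is unknown and no counting interval is given. Each table holds 1 knockdown with the 3 scramble libraries, and the values of each scramble library are higher in the siEXOSC3 table by a nearly constant factor (medians 1.00793, 1.00782 and 1.01188), so each knockdown was compared with scramble within its own table only. Exosc3 stood at 15.5% of its scramble mean in siEXOSC3 cells (limma adjusted p = 1.11e-05) and Ddx1 at 24.4% in siDDX1 cells (limma adjusted p = 9.53e-05). Of 16 markers of neuroblastoma and sympathetic neurons none lay below 0.1 FPKM in all libraries, while the fibroblast markers Lum, Fap, Postn, Twist1, Twist2 and Prrx1, the endothelial markers Cdh5, Kdr and Emcn and the leukocyte markers Ptprc, Csf1r and Lyz2 did. In siEXOSC3 cells 10 of 15 tested neuronal markers rose and 0 fell by limma, with 1 lower at an unadjusted p under 0.05, where 16.7% of all genes tested rose and 15.7% fell, and their summed level was 1754 to 1900 FPKM against 1119 to 1169 in scramble, while in siDDX1 cells 3 rose, where 5.61% of all genes did, and the sum was 1209 to 1277 against 1110 to 1155 FPKM. The part of this shift in the results below was not tested. Summed fibroblast markers lay between 27.0 and 33.5 FPKM in siEXOSC3 cells against 29.6 to 31.5 in scramble, and between 21.6 and 24.3 FPKM in siDDX1 cells against 29.2 to 31.2, mostly from S100a4, Acta2 and Pdgfrb. The siDDX1 sums lay below all scramble sums, but the tested markers went different ways, since S100a4 fell (log2 fold change -0.63, limma adjusted p = 0.0045) and Pdgfrb rose (0.45, limma adjusted p = 0.0149). Summed Schwann cell and glia markers were at 6.33 to 9.24 FPKM in siEXOSC3 against 6.16 to 6.67 FPKM in scramble and at 7.28 to 9.51 FPKM in siDDX1 against 6.12 to 6.59 FPKM. Endothelial markers summed to 7.86 to 11.3 FPKM in siEXOSC3 against 5.30 to 5.99 FPKM, where both tested ones, Pecam1 and Vwf, rose while Tek, under the filter, was lower at 0.0646, 0.0844 and 0.107 FPKM against 0.225, 0.267 and 0.234 FPKM, and to 6.04 to 6.96 FPKM in siDDX1 against 5.26 to 5.92 FPKM. Leukocyte markers summed to at most 2.04 FPKM in any library.

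In scramble cells the genes differed widely in level. Itgb1, the beta chain shared by most matrix-binding integrins, was by far the most abundant member at 232 ± 8.61 FPKM (SD, n = 3), rank 375 of all 24318 genes. It made up 87.4% of the summed level of the 9 integrin beta genes. Itga6, a laminin-binding alpha chain, followed at 58.1 ± 4.28 FPKM (SD, n = 3) and made up 57.6% of the 18 alpha genes. Col4a1 (37.5 ± 3.73 FPKM; SD, n = 3) and Col4a2 (29.6 ± 1.25 FPKM; SD, n = 3), which encode the chains of the widespread form of type IV collagen, and Lamc1 (36.7 ± 1.94 FPKM; SD, n = 3), the gamma chain of most laminins, came next. The levels of Col4a1 and Lamc1 overlapped between libraries and cannot be ordered, and neither can those of Col4a2 and Itgb5 (29.5 ± 0.531 FPKM; SD, n = 3).

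Behind these stood Col6a5 (23.0 ± 2.24 FPKM; SD, n = 3) and, with overlapping levels, Itgav (18.3 ± 1.46 FPKM; SD, n = 3) and Lama4 (18.3 ± 0.517 FPKM; SD, n = 3). No alpha chain of laminin other than Lama4 and Lama5 reached 1 FPKM, and Lamb2 was the only beta chain that did, since Lamb1 was listed at 0.00828, 0 and 0.00751 FPKM. Of 11 fibrillar collagen genes 9 averaged under 1 FPKM over the libraries listed with siEXOSC3, among them Col1a1 at 0.165, 0.157 and 0.206 FPKM in scramble. The other 2, Col11a2 and Col5a3, had scramble means of 2.87 and 1.34 FPKM. The leukocyte integrin genes Itgam and Itgax and the collagen genes Col6a3 and Col9a1 stayed below 0.1 FPKM in all libraries. Over all 6 libraries listed with siEXOSC3, 33 of the 87 genes stayed below 0.1 FPKM, and 11 were listed at 0 throughout. Low values were also common among all 24318 genes. Of these, 17015 were above 0 in at least 1 of the 6 libraries, and a scramble mean of 0.0995 FPKM (Col17a1) ranked 13598.

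**Figure D1:**
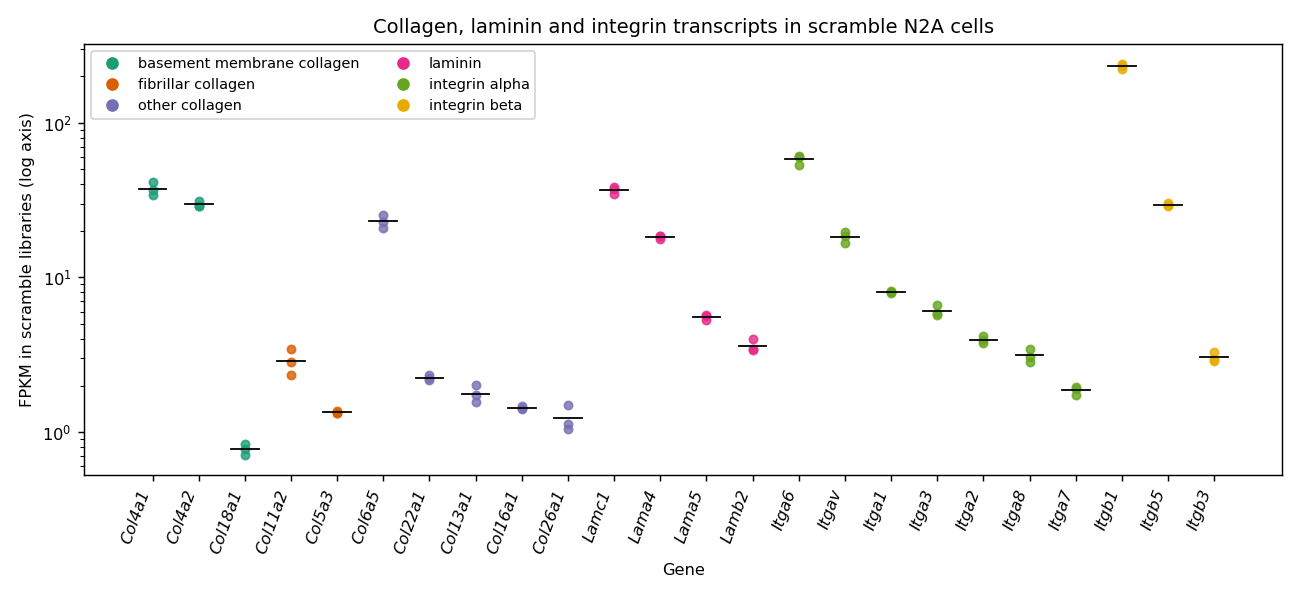
FPKM (log axis) of 24 of the 25 collagen, laminin and integrin genes that passed the filter in the siEXOSC3 table, in the 3 scramble libraries (points; black line, mean), coloured by family. Itgb1 stands above all others at 232 FPKM, and Col18a1, at 0.775 FPKM, passed only through its siEXOSC3 values.

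Log2(FPKM + 1) was tested with limma wherever a gene averaged 1 FPKM or more over the 6 libraries of a table, with adjustment over all genes tested. On this scale the change of a low gene comes out smaller than its ratio of FPKM. In siEXOSC3 cells 29 of the 87 genes passed the filter and 58 did not. Of the 29, 10 rose and 3 fell at a limma adjusted p-value under 0.05, which is 44.8% called, where 32.4% of all 11242 genes tested were called, 16.7% as increased and 15.7% as decreased. Their median log2 fold change was 0.20, against -0.014 over all genes. The siEXOSC3 values lay above all scramble values in 13 genes and below in 5, 18 of 29 in all, where the shares over all genes were 23.8%, 25.9% and 49.7%. The 29 include 4 of the 5 genes outside the families, and without them 13 of 25 (52%) were called, with a median of 0.24 and with 13 above and 3 below all scramble values. Among the 10 is Col18a1, which passed the filter only through its siEXOSC3 values. The genes that rose were Itgb3, Col5a3, Lama4, Itga2, Col18a1, Col16a1, Col22a1, Itga3, Col13a1 and Itgb1, and Col4a1, Itga8 and Itgb5 fell.

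In siDDX1 cells 27 of the 87 genes passed the filter and 60 did not. Here 0 rose and 4 (Col4a1, Itga8, Itgav and Col4a2) fell, which is 14.8% called, close to the 10.6% of all 11104 genes tested, of which 5.61% were increased and 5.03% decreased. At an unadjusted p under 0.05, 1 gene was higher (Itga7) and 7 were lower, where 15.1% of all genes were higher and 15% lower. The median log2 fold change was -0.025, against -0.00059 over all genes. In 9 genes all siDDX1 values lay below all scramble values and in 1 above, 10 of 27 in all, where 17.8%, 17% and 34.7% of all genes did so. Without the 4 genes outside the families, 4 of 23 (17.4%) were called, and 7 lay below and 1 above all scramble values. Col4a1 and Itga8 passed in both knockdowns, which were set against shared scramble libraries and are thus not independent.

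These counts depended on single libraries. In siEXOSC3 cells the number of risen genes was 5, 6 and 5 when scramble replicate 1, 2 or 3 was left out, while the number that fell was 3 in every fit without one library. In siDDX1 cells the number that fell was 1 without scramble replicate 1, scramble replicate 3 or siDDX1 replicate 2, and 2 without siDDX1 replicate 1. Without siDDX1 replicate 3 it was 6, and 2 genes (Col6a5 and Itga3) rose.

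**Figure D2:**
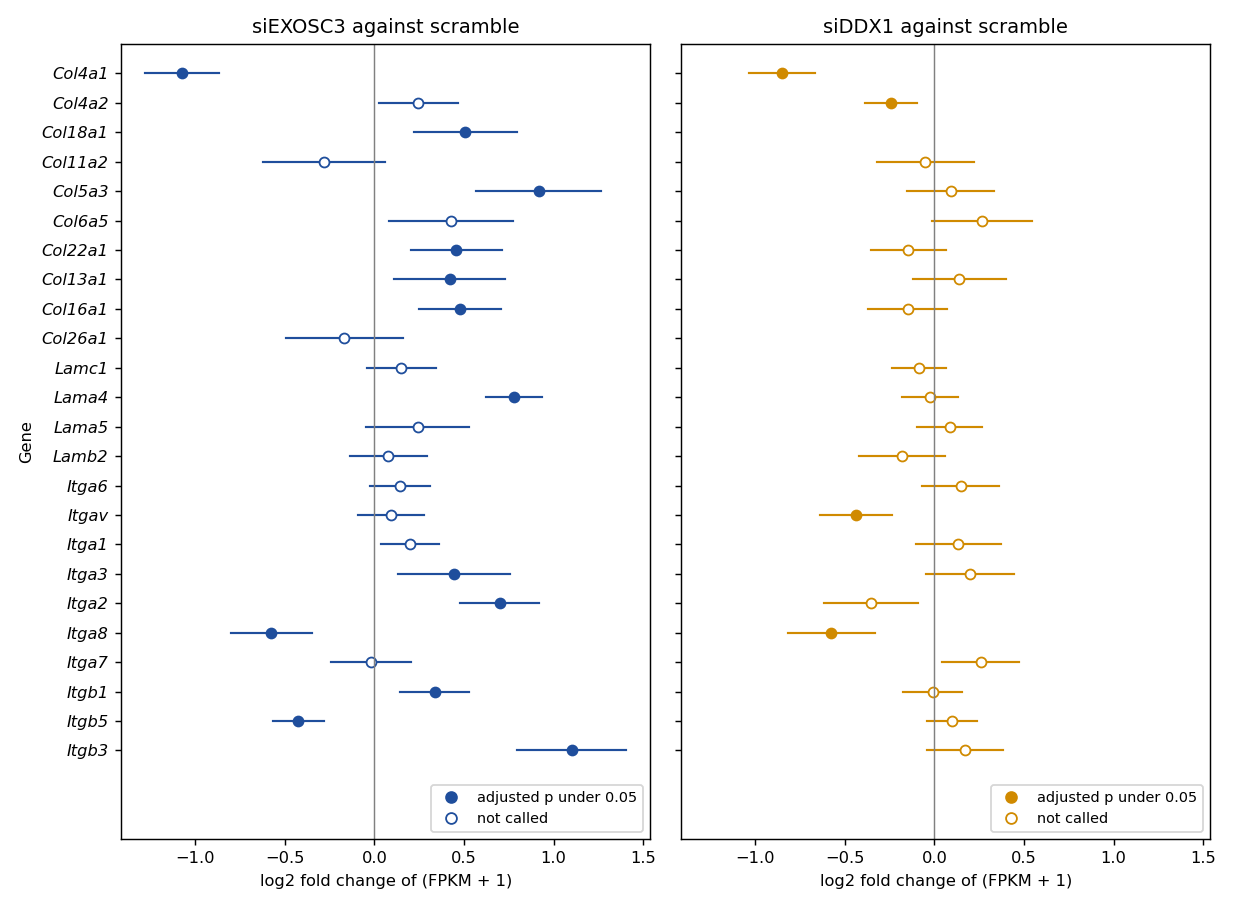
Log2 fold change of (FPKM + 1) with its 95% confidence interval from limma (lines) for the same 24 genes where tested, for siEXOSC3 (left) and siDDX1 (right) against scramble; filled points have an adjusted p-value under 0.05. Col4a1 is the lowest on both sides, at -1.07 and -0.85, Itga8 is low on both sides, and Itgb3, Col5a3 and Lama4 are the highest on the left, where their siDDX1 intervals include 0.

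Col4a1 changed most among the genes that fell. Its levels were 15.8, 17.7 and 18.2 FPKM in the siEXOSC3 libraries against 36.7, 34.2 and 41.5 FPKM in scramble, which left 46.0% ± 3.40 (SD, n = 3) of the scramble mean. Every siEXOSC3 value was below every scramble value (log2 fold change -1.07, standard error (SE) 0.0897, limma adjusted p = 5.22e-04). In siDDX1 libraries Col4a1 stood at 19.8, 19.3 and 21.2 FPKM against 36.4, 33.9 and 41.0 FPKM, or 54.2% ± 2.70 (SD, n = 3) of scramble, again with no overlap (log2 fold change -0.85, SE 0.0809, limma adjusted p = 0.00403). The fall passed the threshold in all 6 fits without one library in both knockdowns, with highest adjusted p-values of 0.00523 and 0.0369.

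Its partner Col4a2 did not follow in siEXOSC3 cells. It was measured at 31.9, 33.4 and 41.2 FPKM in siEXOSC3 libraries and at 29.0, 28.8 and 31.0 FPKM in scramble. These values were higher without overlap, yet the difference did not pass the threshold (log2 fold change 0.25, 95% confidence interval 0.023 to 0.47, limma adjusted p = 0.0839). In siDDX1 libraries Col4a2 was at 23.7, 24.4 and 25.9 FPKM against 28.7, 28.6 and 30.7 FPKM, lower in all 3 libraries (log2 fold change -0.24, SE 0.0631, limma adjusted p = 0.0476). That call is marginal: it was held in the fit without siDDX1 replicate 3 only, among the fits without one library. Without scramble replicates 1, 2 and 3 the adjusted p-value was 0.144, 0.102 and 0.163, and without siDDX1 replicates 1 and 2 it was 0.128 and 0.144. It was also lost with no filter on low FPKM (0.0624), quantile normalization (0.0564), median centring (0.0606) and no intensity trend (0.0673).

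The ratio of Col4a1 to Col4a2, taken within each library, put this difference in 1 number that library scaling does not touch. It was 1.27, 1.19 and 1.34 in the scramble libraries, 0.495, 0.530 and 0.443 in siEXOSC3 and 0.833, 0.792 and 0.819 in siDDX1 libraries. Col4a1 was thus the more abundant transcript of the pair in all 3 scramble libraries and the less abundant in all 6 knockdown libraries. For each knockdown the exact permutation test (two-sided) returned p = 0.1, which is the lowest that 3 against 3 libraries allow.

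**Figure D3:**
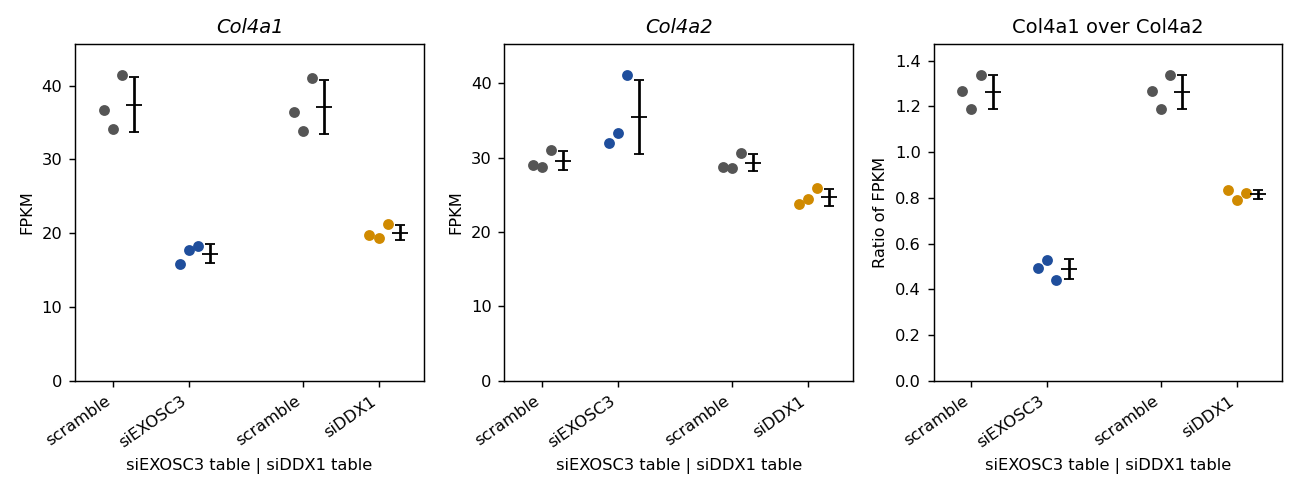
FPKM of Col4a1 (left) and Col4a2 (middle) and their ratio within each library (right), with the 3 libraries of each group as points and the mean ± SD in black; the left pair of groups in each panel is from the siEXOSC3 table and the right pair from the siDDX1 table. Col4a1 is lower in both knockdowns, and the ratio drops from a mean of 1.26 in scramble to 0.489 and 0.815.

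Col4a1 and Col4a2 are neighbours that are transcribed away from each other. On NCBIM37, the sequence of mm9, Col4a1 (ENSMUSG00000031502.9) covers positions 11198423 to 11312826 of chromosome 8 on the minus strand and Col4a2 (ENSMUSG00000031503.7) positions 11312805 to 11449287 on the plus strand. The annotated genes overlap by 22 bases at their starts, and the libraries hold no strand information, so reads within those bases cannot be assigned. Because the pair diverged in the data, the promoter windows of both genes are shown, from 250 bases before to 50 bases after the RefSeq start on GRCm38.p6, each in the direction of its own gene. They are chr8:11312777-11313076 (minus strand) and chr8:11312555-11312854 (plus strand) and share 78 bases. The window of Itga8, the other gene that fell in both knockdowns, is chr2:12301895-12302194 (minus strand). Capitals mark CCAAT boxes (CCAAT or ATTGG on the other strand), GC boxes (GGGCGG or CCGCCC) and TATA boxes (TATAAA or TTTATA), found by exact match.
Col4a1: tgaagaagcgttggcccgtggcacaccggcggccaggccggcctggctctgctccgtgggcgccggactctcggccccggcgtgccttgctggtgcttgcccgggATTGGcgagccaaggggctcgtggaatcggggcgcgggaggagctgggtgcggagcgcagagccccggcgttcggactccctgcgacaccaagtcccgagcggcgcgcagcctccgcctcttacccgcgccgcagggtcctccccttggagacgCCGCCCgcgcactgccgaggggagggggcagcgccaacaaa
Col4a2: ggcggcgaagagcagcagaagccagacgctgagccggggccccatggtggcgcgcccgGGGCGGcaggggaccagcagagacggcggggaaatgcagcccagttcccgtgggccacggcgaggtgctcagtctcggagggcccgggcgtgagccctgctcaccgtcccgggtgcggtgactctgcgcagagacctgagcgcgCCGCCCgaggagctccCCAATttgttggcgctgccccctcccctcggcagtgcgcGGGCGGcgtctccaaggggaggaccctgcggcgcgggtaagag
Itga8: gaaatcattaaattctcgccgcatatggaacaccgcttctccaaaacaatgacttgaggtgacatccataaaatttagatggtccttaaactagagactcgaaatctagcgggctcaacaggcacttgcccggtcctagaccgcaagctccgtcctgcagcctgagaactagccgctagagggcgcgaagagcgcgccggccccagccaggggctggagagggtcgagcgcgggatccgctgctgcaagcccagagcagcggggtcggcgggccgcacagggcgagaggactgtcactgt
The Col4a1 window holds 1 CCAAT box and 1 GC box, the Col4a2 window 1 CCAAT box and 3 GC boxes, 1 of which lies in the shared bases, and neither holds a TATA box. The Itga8 window holds none of the 3 motifs. Over all 32851 promoter windows of that length 37.4% hold a CCAAT box, 35.7% a GC box and 13.6% a TATA box, so these matches are common. The GC content was 74.0% for Col4a1, 73.7% for Col4a2 and 59.0% for Itga8.

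The other collagen IV genes, which lie in like pairs and encode chains of specialized basement membranes, were barely detected. Col4a3 and Col4a4 start 72 bases apart on chromosome 1, and Col4a4 was at 0.0655, 0.129 and 0.153 FPKM in siEXOSC3 and at 0.139, 0.144 and 0.120 FPKM in scramble libraries. Col4a3 reached at most 0.0722 FPKM in any library. Col4a5 and Col4a6 start 1309 bases apart on chromosome X, and Col4a5 was listed at 0 throughout and Col4a6 at no more than 0.0177 FPKM. No fold is given for these 4 genes.

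Among the remaining collagens all called changes in siEXOSC3 cells were increases. Col5a3, a minor chain of fibrillar type V collagen, was at 3.16, 2.70 and 4.62 FPKM in siEXOSC3 and at 1.33, 1.32 and 1.38 FPKM in scramble libraries. All siEXOSC3 values were above scramble, at 260% ± 74.5 (SD, n = 3) of its mean (log2 fold change 0.92, SE 0.153, limma adjusted p = 0.00446), and the call held in all 6 fits without one library. In siDDX1 libraries its values of 1.24, 1.62 and 1.61 FPKM overlapped the scramble values (log2 fold change 0.09, 95% confidence interval -0.15 to 0.33, limma adjusted p = 0.599). Col16a1, a fibril-associated collagen, rose from 1.43, 1.48 and 1.42 to 2.27, 2.28 and 2.67 FPKM in siEXOSC3 cells (log2 fold change 0.48, SE 0.101, limma adjusted p = 0.0102), also in all 6 such fits. In siDDX1 libraries it was at 1.19, 1.29 and 1.09 FPKM, below all scramble values but not past the threshold (limma adjusted p = 0.333).

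Col22a1, a collagen of tissue junctions, Col13a1, a membrane-spanning collagen of neuromuscular synapses, and Col18a1, the basement membrane collagen from which endostatin is cut, also rose in siEXOSC3 cells, less firmly. Col22a1 was at 3.37, 2.99 and 4.08 FPKM against 2.17, 2.25 and 2.32 FPKM, with no overlap (log2 fold change 0.46, SE 0.111, limma adjusted p = 0.0167). The adjusted p-value was 0.0688, 0.0506 and 0.0509 without scramble replicates 1, 2 and 3 and 0.0522 without siEXOSC3 replicate 1. For Col13a1 the values were 2.33, 2.45 and 3.42 against 2.02, 1.74 and 1.56 FPKM (log2 fold change 0.42, SE 0.135, limma adjusted p = 0.0437). This call was held in 1 of the 6 fits without one library, without siEXOSC3 replicate 2 (0.031), and the values without scramble replicates 1, 2 and 3 and siEXOSC3 replicates 1 and 3 were 0.0764, 0.107, 0.136, 0.0605 and 0.0991. It was also lost with no filter on low FPKM (0.0784), quantile normalization (0.151) and removal of a GC and length trend (0.0898).

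Col18a1 stood at 1.38, 1.33 and 1.90 FPKM in siEXOSC3 against 0.776, 0.707 and 0.842 FPKM in scramble libraries (log2 fold change 0.51, SE 0.126, limma adjusted p = 0.0183). It passed the filter through the siEXOSC3 values, since its scramble mean was under 1 FPKM, and in the siDDX1 table it did not pass, at 1.28, 1.08 and 0.850 FPKM. Slc19a1, on the opposite strand, overlaps it and was at 25.1 FPKM in siEXOSC3 and 25.6 FPKM in scramble cells, so some of its reads may be counted for Col18a1. In siDDX1 cells Slc19a1 was at 35.1 FPKM against 25.4 FPKM in scramble. Without scramble replicates 1, 2 and 3 the adjusted p-value was 0.0661, 0.0603 and 0.0507, and with quantile normalization 0.067.

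Col6a5, a type VI chain and the most abundant collagen after the type IV pair, ranged from 24.6 to 39.4 FPKM in siEXOSC3 and from 20.9 to 25.4 FPKM in scramble libraries, with overlap (log2 fold change 0.43, limma adjusted p = 0.0612). In siDDX1 libraries it was at 28.9, 31.7 and 22.8 FPKM, also overlapping (limma adjusted p = 0.186). It passed without siEXOSC3 replicate 2 (0.0037) and without siDDX1 replicate 3 (0.00761), the lowest of the 3 values in each case. Col11a2, a fibrillar chain of cartilage, did not pass in siEXOSC3 (log2 fold change -0.28, limma adjusted p = 0.175) or siDDX1 cells (-0.05, limma adjusted p = 0.815). Col26a1 did not pass in siEXOSC3 cells either (-0.17, limma adjusted p = 0.392), and in the siDDX1 table it fell under the filter at 0.679, 0.601 and 0.723 FPKM. The summed level of all 44 collagen genes was 95.4 to 125 FPKM in siEXOSC3 against 104 to 108 FPKM in scramble libraries, and 85.6 to 92.3 FPKM in siDDX1 against 103 to 107 FPKM. The siDDX1 sums lay below all scramble sums, and Col4a1 alone was 35.4% of the scramble sum.

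Of 11 laminin genes 5 were tested in each table, and Lama4, an alpha chain of vessel, nerve and muscle basement membranes, was the only one called, which is 20% in siEXOSC3 cells, where 32.4% of all genes were called. It was at 32.1, 30.2 and 34.0 FPKM in siEXOSC3 libraries against 18.5, 17.7 and 18.6 FPKM in scramble. The gene covers positions 38685321 to 38829994 of chromosome 10 on the plus strand (NCBIM37). Every siEXOSC3 value was above every scramble value, at 176% ± 10.2 (SD, n = 3) of its mean (log2 fold change 0.78, SE 0.0684, limma adjusted p = 5.22e-04), and the call held in all 6 fits without one library. In siDDX1 libraries Lama4 was at 17.2, 17.0 and 19.2 FPKM against 18.4, 17.5 and 18.4 FPKM, with overlapping groups (log2 fold change -0.02, 95% confidence interval -0.18 to 0.13, limma adjusted p = 0.846).

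The gamma chain with which Lama4 assembles moved less. Lamc1 was at 38.0, 39.2 and 45.8 FPKM in siEXOSC3 and at 37.1, 34.6 and 38.4 FPKM in scramble libraries, with overlap (log2 fold change 0.15, 95% confidence interval -0.043 to 0.35, limma adjusted p = 0.199). The ratio of Lama4 to Lamc1 was 0.847, 0.772 and 0.741 in siEXOSC3 and 0.498, 0.510 and 0.484 in scramble libraries (p = 0.1 in the exact permutation test, the lowest possible). In siDDX1 libraries it was 0.514, 0.512 and 0.532, also above all scramble ratios, by less, with the same p = 0.1 in the exact permutation test. Lama5, the other alpha chain expressed, was at 7.09, 5.37 and 8.0 FPKM against 5.28, 5.71 and 5.64 FPKM (limma adjusted p = 0.167, and 0.00989 without siEXOSC3 replicate 2). In siDDX1 libraries Lamc1 was at 33.5, 33.1 and 36.0 FPKM and Lama5 at 6.04, 6.09 and 5.52 FPKM, with adjusted p-values of 0.403 and 0.505. Lamb2 had adjusted p-values of 0.546 in siEXOSC3 and 0.285 in siDDX1 cells.

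All 3 integrin beta genes that were tested were called in siEXOSC3 cells, where 32.4% of all genes were, and in different directions. Itgb3, a beta chain that pairs with Itgav in a receptor for vitronectin and with Itga2b on platelets, rose most of all members on the log2(FPKM + 1) scale. It covers positions 104469370 to 104531790 of chromosome 11 on the plus strand (NCBIM37). Its values were 7.37, 6.38 and 9.61 FPKM against 2.97, 2.88 and 3.30 FPKM in scramble, or 255% ± 54.3 (SD, n = 3) of the scramble mean (log2 fold change 1.1, SE 0.133, limma adjusted p = 0.00152). Itgb5, another partner of Itgav in vitronectin binding, fell from 30.1, 29.4 and 29.0 to 22.6, 20.9 and 21.7 FPKM (log2 fold change -0.42, SE 0.0627, limma adjusted p = 0.00304). Neither pair of groups overlapped, and both calls held in all 6 fits without one library. Although Itgb5 remained the more abundant, the ratio of Itgb3 to Itgb5 was 0.326, 0.305 and 0.444 in siEXOSC3 against 0.0987, 0.0981 and 0.114 in scramble libraries (p = 0.1 in the exact permutation test, the lowest possible).

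Itgb1 was at 277, 275 and 330 FPKM in siEXOSC3 and at 232, 241 and 224 FPKM in scramble libraries. It thus stood at 127% ± 13.4 (SD, n = 3) of scramble, with no overlap (log2 fold change 0.34, SE 0.0851, limma adjusted p = 0.0193). The adjusted p-value was 0.0736 without scramble replicate 1 and 0.0717 without scramble replicate 3. In siDDX1 cells none of the 3 beta genes passed. Itgb1 was at 224, 247 and 216 FPKM (log2 fold change -0.0091, 95% confidence interval -0.17 to 0.16, limma adjusted p = 0.947), Itgb3 at 3.49, 3.84 and 3.25 FPKM (limma adjusted p = 0.255) and Itgb5 at 32.4, 32.2 and 29.5 FPKM (limma adjusted p = 0.318).

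Among the alpha chains Itga8, which pairs with Itgb1 in a receptor for nephronectin, fell in both knockdowns. It covers positions 12028259 to 12223547 of chromosome 2 on the minus strand (NCBIM37), where an overlapping gene on the other strand, E030013I19Rik, was at 0.190 FPKM in scramble cells. Itga8 was at 1.71, 1.87 and 1.73 FPKM in siEXOSC3 against 3.06, 2.86 and 3.47 FPKM in scramble libraries, or 56.5% ± 2.91 (SD, n = 3) of scramble (log2 fold change -0.57, SE 0.10, limma adjusted p = 0.0053). In siDDX1 libraries it was at 1.68, 1.58 and 2.01 against 3.04, 2.84 and 3.43 FPKM, or 56.6% ± 7.30 (SD, n = 3) of scramble (log2 fold change -0.57, SE 0.105, limma adjusted p = 0.0157). All 6 knockdown values were below all scramble values. The call in siEXOSC3 cells held in all 6 fits without one library, whereas in siDDX1 cells it was lost without scramble replicate 1 (0.0776) or 3 (0.0754) and without siDDX1 replicate 1 (0.0528) or 2 (0.0625).

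Itga2, the alpha chain of a collagen receptor, was at 7.28, 6.20 and 7.74 FPKM in siEXOSC3 against 3.93, 3.76 and 4.20 FPKM in scramble libraries. The gene covers positions 115626124 to 115722249 of chromosome 13 on the minus strand (NCBIM37). It rose to 179% ± 19.9 (SD, n = 3) of scramble (log2 fold change 0.70, SE 0.0968, limma adjusted p = 0.00251), a call that held in all 6 fits without one library. In siDDX1 libraries it was at 2.31, 3.03 and 3.30 FPKM, below all scramble values (log2 fold change -0.35, 95% confidence interval -0.61 to -0.09), but did not pass (limma adjusted p = 0.0832), except without siDDX1 replicate 3 (0.0168). Itga3, a laminin receptor chain, rose in siEXOSC3 cells from 5.89, 6.65 and 5.74 to 8.54, 6.97 and 10.8 FPKM (log2 fold change 0.44, SE 0.137, limma adjusted p = 0.0381). That call was held without siEXOSC3 replicate 2 (0.00381) but lost in the other 5 fits, with 0.117, 0.0626 and 0.120 without scramble replicates 1, 2 and 3 and 0.0963 and 0.0615 without siEXOSC3 replicates 1 and 3. With no filter on low FPKM it was 0.0887, with quantile normalization 0.0531 and after removal of the GC and length trend 0.0528. In siDDX1 cells Itga3 was at 7.80, 7.49 and 6.0 FPKM (limma adjusted p = 0.251).

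Itgav, the alpha chain that binds fibronectin and vitronectin with several beta chains, was lower in siDDX1 libraries, at 12.1, 12.9 and 14.5 FPKM against 18.4, 16.7 and 19.5 FPKM in scramble. This was 72.5% ± 6.54 (SD, n = 3) of scramble, with no overlap (log2 fold change -0.44, SE 0.0869, limma adjusted p = 0.0208). Its adjusted p-value was 0.0984 and 0.0944 without scramble replicates 1 and 3 and 0.0651 and 0.0762 without siDDX1 replicates 1 and 2. In siEXOSC3 libraries Itgav was at 18.3, 20.1 and 20.5 FPKM, which overlapped scramble (log2 fold change 0.09, 95% confidence interval -0.09 to 0.28, limma adjusted p = 0.390).

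Itga6, the most abundant alpha chain, was at 63.4, 62.3 and 67.3 FPKM in siEXOSC3 against 61.0, 53.2 and 60.1 FPKM in scramble libraries, above all of them by little (log2 fold change 0.15, 95% confidence interval -0.022 to 0.31, limma adjusted p = 0.156). In siDDX1 libraries it was at 59.4, 59.7 and 73.1 FPKM, with overlap (limma adjusted p = 0.327). Itga1, a collagen receptor chain, was at 9.29, 9.05 and 9.87 FPKM in siEXOSC3 and 8.11, 8.10 and 7.95 FPKM in scramble libraries (limma adjusted p = 0.0603, and 0.0458 without siEXOSC3 replicate 2). Its value is uncertain because Pelo, at 35.3 FPKM in scramble cells, lies within it on the same strand. Itga7, a laminin receptor chain of muscle, was higher in all 3 siDDX1 libraries at 130% ± 10.4 (SD, n = 3) of scramble without passing the threshold (limma adjusted p = 0.111). Mettl7b, which overlaps it on the opposite strand, was at 1.39 FPKM in siDDX1 against 1.04 FPKM in scramble cells. The adjusted p of Itga7 in siEXOSC3 cells was 0.880 with limma.

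**Figure D4:**
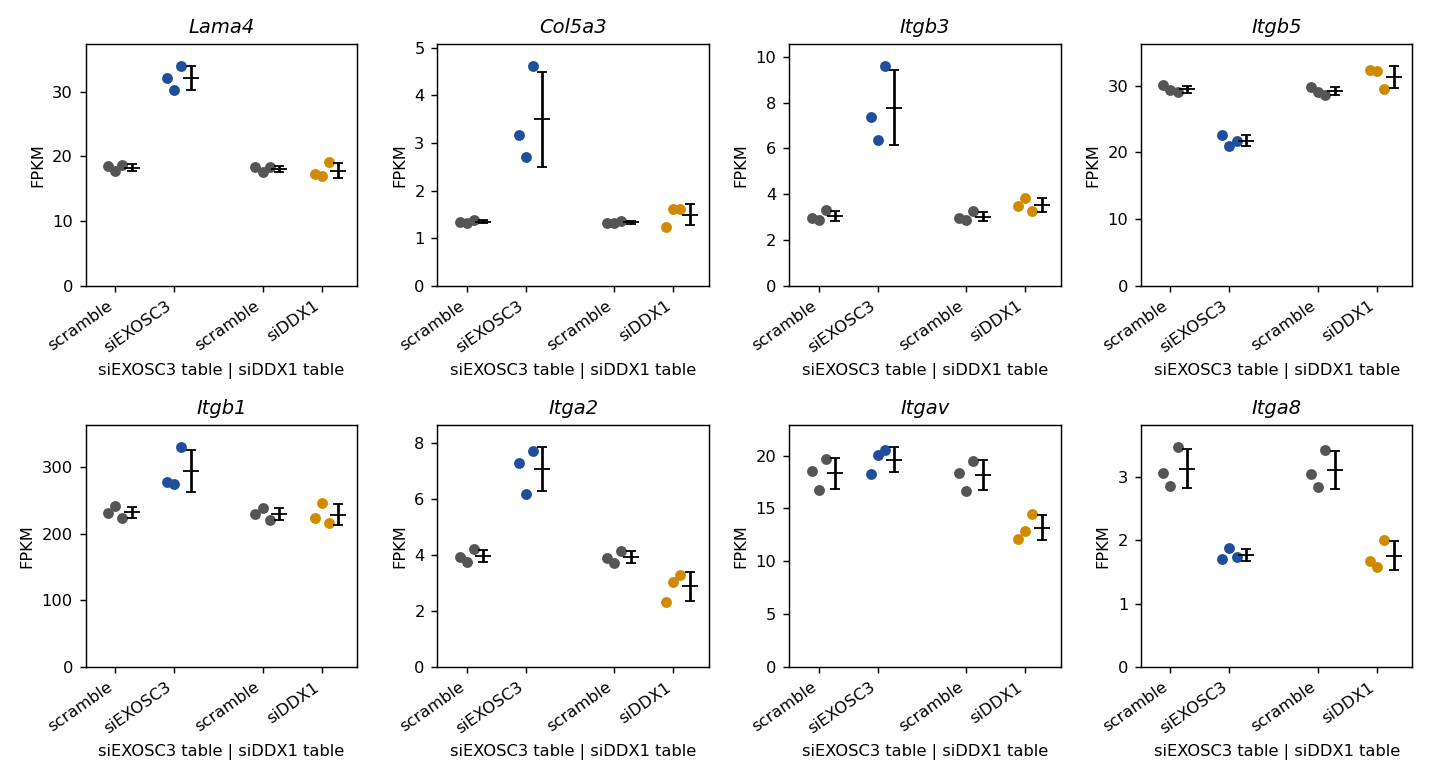
FPKM of 8 called genes in every library (points) with mean ± SD in black, the siEXOSC3 table to the left and the siDDX1 table to the right in each panel. Lama4, Col5a3, Itgb3 and Itga2 stand above all scramble values in the 3 siEXOSC3 libraries, Itgav stands below them in the 3 siDDX1 libraries, and Itga8 is below them in both knockdowns.

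Summed over the 18 alpha genes, siEXOSC3 libraries held 110 to 122 FPKM against 94.99 to 105 FPKM in scramble, and over the 9 beta genes 304 to 363 FPKM against 257 to 274 FPKM. Both sums were above all scramble sums. In siDDX1 libraries the sums overlapped scramble, at 95.8 to 113 FPKM against 94.2 to 103 FPKM for alpha genes and 250 to 284 FPKM against 254 to 272 FPKM for beta genes. Laminin sums were 79.9 to 93.8 FPKM in siEXOSC3 against 62.9 to 68.5 FPKM in scramble, and 60.3 to 65.7 FPKM in siDDX1 against 62.4 to 67.7 FPKM.

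Of the 58 genes under the filter in the siEXOSC3 table, 23 had a mean of at least 0.1 FPKM. In 10 of these (Col14a1, Col17a1, Col1a1, Col23a1, Col24a1, Col2a1, Col7a1, Itga2b, Itgal and Itgb4) all siEXOSC3 values were above scramble and in 1 (Itgb2) below, where 24.1% and 7.57% of all 2523 genes at that level did so. Of the 10, Col24a1 and Col17a1 reached 0.1 FPKM only through their siEXOSC3 values, since their scramble means were 0.0661 and 0.0995 FPKM. Itga2b, the platelet partner of Itgb3, was at 0.862, 0.564 and 1.27 FPKM against 0.189, 0.30 and 0.224 FPKM in scramble. Col1a1, a chain of the main fibrillar collagen, was at 0.474, 0.295 and 0.405 FPKM against 0.165, 0.157 and 0.206 FPKM. Values this low can rest on few fragments, and they were tested only in the fit with no filter, in which Col14a1, Col1a1, Col24a1, Itga2b and Itgb4 passed (limma adjusted p = 0.0463, 0.03, 0.0114, 0.0293 and 0.017). That is 21.7% of the 23, with Col24a1 counted, where 12.6% of all genes at that level rose in that fit. With siDDX1, 24 of 60 genes under the filter lay at this level, with 4 above all scramble values (Col14a1, Col18a1, Itga2b and Itgb2) and 1 below (Col26a1), against 11.3% and 9.91% of all 2533 genes. Without the filter Col14a1 and Itgb2 passed there (limma adjusted p = 0.038 and 0.0421), or 8.33% of the 24, where 2.17% of all genes at that level rose. Itgb2, the beta chain of leukocyte integrins, was at 1.09, 1.01 and 0.884 FPKM in siDDX1 and at 0.497, 0.635 and 0.431 FPKM in scramble libraries. Of 7 leukocyte markers 4 stayed below 0.1 FPKM in all 6 libraries of that table, and Cd3e was at 0.0837, 0.353 and 0.203 FPKM against 0.163, 0 and 0.0365 FPKM in scramble. Cd68 was at 0.785, 0.853 and 0.368 FPKM against 1.81, 0.665 and 1.03 FPKM, and the sum of all 7 markers was 0.634 to 1.43 FPKM against 0.787 to 2.03 FPKM. Their part in the value of Itgb2 was not tested.

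The 5 genes that only share a spelling with the families gave no call with all libraries. Col4a3bp, a ceramide transfer protein, was lower in all 3 libraries of both knockdowns, at 92.0% ± 1.95 (SD, n = 3) of scramble in siEXOSC3 (limma adjusted p = 0.162) and 85.3% ± 5.03 (SD, n = 3) in siDDX1 cells (limma adjusted p = 0.0603). Itgb1bp1, which binds the tail of the beta chain encoded by Itgb1, was at 87.1% ± 0.501 (SD, n = 3) and 80.0% ± 9.87 (SD, n = 3) of scramble (limma adjusted p = 0.0603 and 0.0674). For Itgb3bp, a centromere protein, the adjusted p-values were 0.933 and 0.801, and for Itgbl1, a secreted protein, 0.112 and 0.966. Itgbl1 passed without siEXOSC3 replicate 2 (0.032), Col4a3bp without siDDX1 replicate 3 (0.0348) and Itgb1bp1 without siDDX1 replicate 1 (0.0366). Itgb1bp2, a muscle protein, was under the filter in both tables.

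Other matrix and adhesion genes were followed in 5 lists with 177 genes in the tables. In siEXOSC3 cells 30 of 99 tested genes rose and 10 fell, or 40.4%, against 32.4% over all genes, and in siDDX1 cells 9 of 96 rose and 8 fell, or 17.7%, against 10.6%. The 30 include Serpinh1 and Mrc2, which passed the filter only through their siEXOSC3 values. Without scramble replicates 1, 2 and 3 the siEXOSC3 total of 40 was 16, 26 and 22, and without siEXOSC3 replicate 1 it was 22. The siDDX1 total of 17 was 1, 4 and 2 without scramble replicates 1, 2 and 3, and 6, 3 and 33 without siDDX1 replicates 1, 2 and 3. Median log2 fold changes of the lists lay between -0.042 and 0.26 in siEXOSC3 and between -0.099 and 0.11 in siDDX1 cells.

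Collagen processing genes, whose products hydroxylate, fold and trim procollagen, were called as increased in 6 of 19 and decreased in 2 of 19 cases in siEXOSC3 cells (42.1% called against 32.4% of all genes). Serpinh1, among the 6, passed the filter only through its siEXOSC3 values (1.41 FPKM against 0.636 FPKM in scramble). Pcolce, which enhances the trimming of procollagen, rose most on the log2(FPKM + 1) scale, from 13.2 ± 0.871 to 23.7 ± 1.52 FPKM (SD, n = 3; log2 fold change 0.79, limma adjusted p = 7.82e-04), followed by P4ha1, a chain of prolyl hydroxylase (0.57, limma adjusted p = 0.023). P3h1, a prolyl hydroxylase, fell from 3.91 ± 0.442 to 1.85 ± 0.325 FPKM (SD, n = 3; -0.79, limma adjusted p = 0.00329), and Plod1, a lysyl hydroxylase, by a log2 fold change of -0.24 (limma adjusted p = 0.0258). In siDDX1 cells 1 of 16 rose (Pcolce, 0.40, limma adjusted p = 0.0198) and 1 fell (Plod1, -0.42, limma adjusted p = 0.013), or 12.5% called against 10.6% of all genes.

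Among other matrix proteins 5 of 13 rose and 1 fell in siEXOSC3 cells (46.2% called against 32.4% of all genes), and 4 of 14 rose and 1 fell in siDDX1 cells (35.7% against 10.6%). Fn1, fibronectin and a ligand of Itgav integrins, was at 133, 139 and 148 FPKM in siDDX1 against 78.1, 83.7 and 85.0 FPKM in scramble libraries (log2 fold change 0.76, SE 0.0650, limma adjusted p = 0.00308). In siEXOSC3 libraries it was at 92.7, 92.3 and 116 FPKM against 78.7, 84.4 and 86.0 FPKM, higher without overlap but not past the threshold (limma adjusted p = 0.0663). Fbln2, a fibulin, rose by 0.44 on the log2 scale in siDDX1 cells (limma adjusted p = 0.0211), and Thbs3, a thrombospondin, changed by -0.37 (limma adjusted p = 0.0392). In siEXOSC3 cells Ecm1 (0.59, limma adjusted p = 0.0234) and Hspg2, which encodes perlecan (0.41, limma adjusted p = 0.0246), rose, and Smoc1 changed by -0.31 (limma adjusted p = 0.0492).

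Integrin adaptors and focal adhesion genes were called in both directions in siEXOSC3 cells, with 8 of 32 increased and 5 of 32 decreased (40.6% called against 32.4% of all genes). Parvb, a parvin that links integrin-linked kinase to actin (0.78, limma adjusted p = 0.00203), and Actn1, an actin crosslinker (0.71, limma adjusted p = 0.00442), rose most on the log2(FPKM + 1) scale, and the adaptors Crkl (-0.53, limma adjusted p = 0.0039) and Apbb1ip (-0.50, limma adjusted p = 0.0116) fell most on the log2 scale. In siDDX1 cells 4 of 32 rose and 1 fell (15.6% called against 10.6% of all genes), with Actn1 (0.42, limma adjusted p = 0.0126) and Vasp (0.36, limma adjusted p = 0.0203) first on the log2(FPKM + 1) scale, and Rap1b, a small GTPase that activates integrins, fell (-0.27, limma adjusted p = 0.0452). Rap1b rose, by contrast, in siEXOSC3 cells (0.38, limma adjusted p = 0.00763).

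Other matrix receptors rose in 7 of 15 cases and fell in 0 in siEXOSC3 cells by limma (46.7% called against 32.4% of all genes), with 2 lower at an unadjusted p under 0.05. Mrc2, among the 7, passed the filter only through its siEXOSC3 values (1.73 FPKM against 0.727 FPKM in scramble). Sdc4 (0.87, limma adjusted p = 0.0033) and Sdc3 (0.69, limma adjusted p = 0.0107), which encode syndecans, rose most on the log2(FPKM + 1) scale. In siDDX1 cells Cd9, a tetraspanin that associates with integrins, fell (-0.28, limma adjusted p = 0.0321), whereas it rose in siEXOSC3 cells (0.61, limma adjusted p = 9.05e-04). Of the 14 tested with siDDX1, 0 rose (7.14% called, below the 10.6% of all genes), with 2 higher and 4 lower at an unadjusted p under 0.05. Of matrix proteases and their inhibitors 4 of 20 rose and 2 fell in siEXOSC3 cells (30% called, below the 32.4% of all genes), with Timp2 (0.62, limma adjusted p = 0.0241), a metalloproteinase inhibitor, among those that rose, and Mmp19 (-0.44, limma adjusted p = 0.0473) and Adam9 (-0.25, limma adjusted p = 0.0193) lowest among those called. Plat had a log2 fold change of -0.55 there without passing (limma adjusted p = 0.0851). In siDDX1 cells 0 of 20 rose, with 1 higher at an unadjusted p under 0.05, and 4 fell (20% called against 10.6% of all genes), with Plat, tissue plasminogen activator (-0.82, limma adjusted p = 0.0417), and Mmp15, a membrane-bound metalloproteinase (-0.76, limma adjusted p = 0.00777), lowest. Mmp19 and Mmp15 passed the filter through their scramble values, since their means of 0.913 FPKM in siEXOSC3 and 0.516 FPKM in siDDX1 cells were under 1 FPKM.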

How the data were processed

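Gene expression was measured by paired-end RNA-seq of ribosomal RNA-depleted, nondirectional libraries. The authors aligned reads with TopHat2 2.1.0 to mm9 and made FPKM values with Cuffdiff 2.2.1, and SAMtools is also named in the submitters' processing notes. The deposited FPKM values are in 2 tables, each with 1 knockdown and the 3 scramble libraries. Which annotation was used and how libraries were scaled are not given in the sources used here. FPKM are not counts, and the methods state a sequencing target only, so the depth reached is unknown and no count model was used. Columns other than those of the 9 libraries numbered 0.

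Within each table, log2(FPKM + 1) of genes with a mean of at least 1 FPKM was tested with limma 3.58.1 (R 4.3.3) with an intensity trend, two-sided, with Benjamini-Hochberg adjustment over all genes tested and a threshold of 0.05. Errors are SD of 3 libraries. Ratios within a library were compared by exact permutation over 20 arrangements (SciPy 1.17.1). On simulated data with 200 changed genes, the fit called 188 for siEXOSC3 (11242 genes) and 182 for siDDX1 (11104 genes), with 6 and 9 unchanged genes called. Each changed gene was moved by 1 on the log2 scale, and noise was drawn independently for each gene and library. Most genes named above changed by less. Shifts shared across a library were not simulated, so these counts do not give error rates for the results above.

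The genes, the 5 lists of other matrix and adhesion genes and the marker lists were chosen with earlier results of these data known. Named with values were all called genes, the 3 most abundant tested genes of each family (fibrillar, basement membrane and other collagens apart), the collagen IV pairs, symbols outside the families, and the 2 largest rises and falls called per list. Others, such as genes under 1 FPKM and Itga1, Itga7 and Itga2b, were named after their values were seen. Values of some genes that this rule would name are not reported here. Positions are from GENCODE vM1 (NCBIM37), where 86 of 87 symbols matched, and promoters from RefSeq (GRCm38.p6). Alternatives changed the pseudocount (0.1), the minimum (none or 5), the normalization (quantile or median centring), the trend, the threshold (0.01) and the libraries, added the replicate number as a block or, chosen after seeing the data, removed a trend with GC content and length.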

Additional observations from a re-analysis of the deposited data

Results flagged for a closer look

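In 4 of the 27 genes tested in both tables all 3 siEXOSC3 libraries were above, and all 3 siDDX1 libraries below, all 3 scramble libraries, a pattern shown by 167 (1.51%) of all 11054 genes tested in both. Their log2 fold changes in siEXOSC3 and siDDX1 cells were 0.70 and -0.35 for Itga2, 0.48 and -0.15 for Col16a1, 0.46 and -0.14 for Col22a1, and 0.25 and -0.24 for Col4a2. The difference between the knockdowns was not tested, because the tables were scaled separately, and both comparisons use the same scramble libraries. In siEXOSC3 cells Itga2, Col16a1 and Col22a1 passed the threshold (limma adjusted p = 0.00251, 0.0102 and 0.0167), and in siDDX1 cells Col4a2 did (0.0476).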

How the results depend on the processing

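No call turned direction under the alternatives that were run. Of 231 values of called genes over the alternatives at the threshold of 0.05, 185 kept the call and 46 lost it, and 2 values of genes called in the other knockdown gained it. In siEXOSC3 cells the number of risen genes was 5 with a minimum of 5 FPKM and 4 at an adjusted p under 0.01. At that threshold 1349 genes in all and 13 of the other matrix and adhesion genes were called. In siDDX1 cells 2 genes rose with no filter on low FPKM (Col14a1 and Itgb2) and 1 with the replicate block (Col6a5), and 1 fell at an adjusted p under 0.01. All genes called there were 717 with no filter, 1893 with the replicate block and 183 at an adjusted p under 0.01, when 2 other matrix and adhesion genes were left. Without one library, risen genes ranged from 5 to 14 in siEXOSC3 and from 0 to 2 in siDDX1 cells, fallen genes from 3 to 3 and from 1 to 6, and other matrix and adhesion genes called from 16 to 46 and from 1 to 33. All genes called ranged from 1610 (without scramble replicate 1) to 4887 (without siEXOSC3 replicate 2) and from 158 (without scramble replicate 1) to 3524 (without siDDX1 replicate 3).

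The labels do not say whether replicate numbers pair the samples. Correlations of deviations of same-numbered libraries were 0.0346, -0.31 and -0.126 for siEXOSC3 and -0.0121, 0.379 and 0.372 for siDDX1. The values 0.379 and 0.372 were the highest of all siDDX1 pairs. Crossed pairs of replicates 2 and 3 were at -0.376 and -0.372 there, and pairing was not tested further. With the replicate block 7 genes rose and 3 fell in siEXOSC3 and 6 fell in siDDX1 cells, and 2449 genes in all were called in siEXOSC3 cells. The block ended the calls of Itgb1 (limma adjusted p = 0.0512), Col13a1 (0.0921) and Itga3 (0.078) in siEXOSC3 cells and of no gene in siDDX1 cells. The GC and length trend removal gave 10 risen and 3 fallen genes in siEXOSC3 and 0 and 4 in siDDX1 cells. With 3 libraries a group and no read counts, differences of genes under 1 FPKM could not be weighed against counting error.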
